A study of Homo sapiens with 18 samples.

Results

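The genes for 8 subunits of the transcription factor AP-1 were followed through 18 RNA sequencing libraries of MiaPaCa-2, a much-used cell line from a human pancreatic carcinoma. The members were chosen by gene symbol: FOS, FOSB, FOSL1 and FOSL2 of the FOS family, JUN, JUNB and JUND of the JUN family, and ATF3. Each symbol matched 1 row, so 8 of the 57445 genes in the deposited count table are described. The study injected the line into the sciatic nerve and recovered leaders, the cells at the front of invasion along the nerve, and laggers, the cells behind them. Recovered leaders were expanded in culture and put back into a nerve, over 4 passages. The groups were leaders of passage 1, leaders of passage 2, leaders of passage 3, leaders of passage 4, laggers of passage 1, and the parental line, which was never injected and was kept in vitro, with 3 libraries each. All groups carry the wild-type genotype in the labels and all derive from 1 cell line. Nothing in the labels says that replicates came from separate animals or cultures, so a p-value here reflects only how far these libraries spread, which may be technical. The sources used here give neither the host of the nerve nor whether RNA was taken at harvest or after growth in culture.

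AP-1 is a dimer of basic leucine zipper proteins. JUN proteins pair with each other or with FOS proteins, whereas FOS proteins need a JUN partner to bind DNA. FOS, FOSB, JUN, JUNB and ATF3 are immediate early genes: growth factors, stress and MAP kinase signalling switch on their transcription within minutes and their messengers are short-lived. FOSL1 (FRA-1) and FOSL2 (FRA-2) lack the strong activation domain of FOS, are induced later, and FOSL1 is known for sustained expression downstream of RAS and ERK signalling in carcinoma cells, including pancreatic ones. JUND is broadly expressed and less inducible than the other JUN genes.

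In GRCh38 (GENCODE 29), FOS lies on chromosome 14 (75278774 to 75282230, plus strand), FOSB on chromosome 19 (45467995 to 45475179, plus strand) and FOSL1 on chromosome 11 (65892049 to 65900573, minus strand). FOSL2 lies on chromosome 2 (28392448 to 28417312, plus strand), JUN on chromosome 1 (58780788 to 58784327, minus strand) and ATF3 on the same chromosome (212565334 to 212620777, plus strand). JUNB (12791496 to 12793315, plus strand) and JUND (18279760 to 18281622, minus strand) lie on chromosome 19. All 8 are protein-coding, and the exons of JUNB overlap those of HOOK2 on the other strand. The library kit does not mark strand, so reads from JUNB and HOOK2 cannot be told apart in the overlap.

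Promoter sequences were found for 7 of the 8 genes in a RefSeq table of GRCh38.p14. FOSL1 has no entry and ATF3 has 2. The upstream 250 bases are shown for FOS and FOSB, whose messengers rose most, for FOSL2, which fell, and for JUND, which passed the test in no comparison. The starts are those of RefSeq and can differ from the GENCODE 29 positions given above. The FOSL2 window lies wholly inside the gene span given there, and the FOS window ends inside that of FOS. Capitals mark TGACG, read on either strand, and in JUND also the full cAMP response element TGACGTCA, whose first 5 bases are the same letters.
FOS (chr14:75278578-75278827, plus strand): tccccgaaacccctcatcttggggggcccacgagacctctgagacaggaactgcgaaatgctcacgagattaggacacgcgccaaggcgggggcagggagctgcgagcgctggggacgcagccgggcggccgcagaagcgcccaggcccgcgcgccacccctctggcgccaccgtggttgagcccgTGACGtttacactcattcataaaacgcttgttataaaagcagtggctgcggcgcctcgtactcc
FOSB (chr19:45467746-45467995, plus strand): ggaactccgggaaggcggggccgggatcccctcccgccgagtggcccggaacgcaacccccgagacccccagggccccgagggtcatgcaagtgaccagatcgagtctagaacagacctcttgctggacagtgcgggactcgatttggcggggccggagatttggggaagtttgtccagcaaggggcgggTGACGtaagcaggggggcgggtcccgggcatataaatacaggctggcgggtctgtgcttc
FOSL2 (chr2:28392608-28392857, plus strand): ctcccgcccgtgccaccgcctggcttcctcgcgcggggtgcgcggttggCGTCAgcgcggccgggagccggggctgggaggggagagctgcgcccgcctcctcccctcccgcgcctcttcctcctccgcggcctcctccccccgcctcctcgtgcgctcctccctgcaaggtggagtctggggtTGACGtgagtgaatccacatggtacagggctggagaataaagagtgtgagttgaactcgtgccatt
JUND (chr19:18281623-18281872, minus strand): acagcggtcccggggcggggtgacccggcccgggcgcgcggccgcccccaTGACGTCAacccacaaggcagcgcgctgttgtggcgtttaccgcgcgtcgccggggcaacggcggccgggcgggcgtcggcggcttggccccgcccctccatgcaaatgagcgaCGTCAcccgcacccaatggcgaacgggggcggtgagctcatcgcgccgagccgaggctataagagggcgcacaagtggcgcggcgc
Each window searched ran from 250 bases before to 50 bases after the start, on both strands. TGACG was found in FOS, FOSB, FOSL2, JUN, JUNB and JUND and in neither entry of ATF3. It was thus in 6 of 7 genes and in 6 of 8 promoter entries, against 24.6% of 35116 promoters in the table. This core was added to the search after the sequences had been seen, so these shares cannot show an enrichment. In FOS it lay at bases -64 to -60 and in FOSB at -60 to -56. The AP-1 site TGANTCA was found only in FOSL2, at bases 4 to 10 after the start, and in 7.71% of all promoters. TGACGTCA was found only in JUND, at -200 to -193, and in 1.85% of all promoters. The CArG box of serum response factor was in none of the 7 within these windows and in 1.29% of all promoters. These matches describe letters and do not show binding.

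Between 15113462 and 39373248 counts were assigned to genes per library, with the parental libraries deepest (29005147 to 39373248). Entries that name no gene, such as unaligned reads, took 37.3% to 60.6% of all counts in injected libraries and 27.6% to 34.7% in parental ones. Among them, reads aligned to more than 1 place took 20.2% to 32.6% in injected libraries and 13.9% to 16.4% in parental ones. Levels are CPM, the counts of a gene scaled to library size, with the library sizes adjusted by the TMM method of edgeR. The defining genes KRT8, KRT18 and VIM of the line were at 1763 CPM or more in every library. KRT8 had 4359 to 12278 CPM in injected libraries and 1910.1 to 3124 CPM in parental ones. KRT18 had 4679 to 14658 CPM in injected libraries and 2123 to 2703 CPM in parental ones. VIM overlapped, with 1763 to 2830.5 CPM in injected libraries and 1789 to 1859 CPM in parental ones. Injected libraries differed from parental ones in make-up: mitochondrially encoded genes took 5.6% to 8.57% of gene counts in leaders of passage 1, 3.36% to 3.9% at passage 2, 2.73% to 3.38% at passage 3, 1.95% to 3.33% at passage 4 and 5.91% to 8.47% in laggers, against 0.472% to 0.873% in the parental line. The summed level of 10 fibroblast genes was 1009 to 2311 CPM in leaders of passage 1, 739 to 1504 CPM at passage 2, 549.8 to 1336 CPM at passage 3, 234 to 496 CPM at passage 4 and 1274 to 2155 CPM in laggers, against 119 to 253 CPM in the parental line. COL3A1 and COL1A2 carried most of that sum in the injected groups. COL3A1 had 558 to 1292 CPM in leaders of passage 1, 175 to 382 CPM in leaders of passage 4 and 619 to 1162 CPM in laggers, against 4.54 to 10.2 CPM in the parental line, and COL1A2 had 444 to 959.8, 37.1 to 95.6 and 414 to 865 CPM in those injected groups, against 0.777 to 0.995 CPM. These collagens and PDGFRA, which had 0.56 to 92.3 CPM in injected libraries and at most 0.274 CPM in parental ones, were the 3 of 10 that lay above the parental range in every injected library. Of the 2 fibroblast genes read one by one as defining, COL1A1 had at most 118 CPM in injected libraries and 111 to 240.3 CPM in parental ones, and DCN had 0.594 to 6.4 CPM in leaders of passage 1, at most 0.334 CPM at later passages and 4.97 to 12 CPM in laggers, against at most 0.562 CPM in the parental line. LUM had 1.29 to 5.6 CPM in leaders of passage 1 and at most 1.7, 0.562 and 0.0832 CPM at passages 2, 3 and 4. It had 2.45 to 17.1 CPM in laggers, against at most 0.179 CPM in the parental line. PDGFRB, THY1, COL6A3 and FAP stayed at or below 2.24 CPM in every library. The Schwann cell marker SOX10 stayed at or below 0.383 CPM, and the leukocyte marker PTPRC had no count in laggers or the parental line and at most 4.86 CPM in leaders. Schwann genes together were lower in every injected library (34.1 to 98.2 CPM) than in the parental line (241 to 291 CPM). Summed macrophage and other leukocyte genes stayed between 2.41 and 35.4 CPM and neuronal genes between 7.63 and 24.6 CPM, while 7 endothelial genes summed to 53.2 to 176 CPM in injected libraries and 155 to 278 CPM in parental ones. The neuronal gene RBFOX3 had 0.736 to 3.27 CPM in leaders of passage 1 and 2.3 to 5.6 CPM in laggers, against at most 0.199 CPM in the parental line. SNAP25, also neuronal, had 0.515 to 5.81 CPM in leaders of passage 1 and at most 0.46 CPM in the parental line. The endothelial gene CDH5 had 0.92 to 12.4 CPM in leaders of passage 1 and 2.52 to 3.81 CPM in the parental line. The part of these differences in make-up in the results below was not tested. All calls for the 8 genes were the same with mitochondrial genes left out. That step only removes their counts and cannot show what goes with their share. In such bulk libraries, more cells expressing a gene and more RNA per cell cannot be told apart.

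FOS, the founding member of its family, was scarce in the parental line and stood at 1041 CPM or more in every injected library. Leaders had 1405, 1041 and 1605 CPM at passage 1, 2531, 2451 and 2188 CPM at passage 2, 1879, 2069.8 and 2280.2 CPM at passage 3, and 1462, 1515 and 1735 CPM at passage 4. Laggers had 1097, 1156 and 2137 CPM, and the parental line had 21.3, 19.2 and 35.6 CPM. The lowest of the 15 injected libraries therefore lay far above the highest parental library. FOS was 53.2-fold higher in leaders of passage 1, a log2 fold change of 5.73 with a standard error (SE) of 0.32 (edgeR adjusted p = 1.71e-08), and 57.7-fold higher in laggers (5.85 ± 0.32, edgeR adjusted p = 1.02e-08), each against the parental line. The fold was 94.2 at passage 2, 81.8 at passage 3 and 61.9 at passage 4. The group order ran from leaders of passage 2 and 3, whose libraries overlapped, down to leaders of passage 4, laggers and leaders of passage 1, which also overlapped as neighbours.

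FOSB, a close relative of FOS with its own activation domain, had the largest fitted fold of the 8 genes in laggers and in leaders of passages 1 and 2. Leaders had 273, 427 and 264 CPM at passage 1, 326, 345 and 404 CPM at passage 2, 161, 230.2 and 200.0 CPM at passage 3, and 132, 99.9 and 114 CPM at passage 4. Laggers had 210.4, 453 and 602 CPM, against 4.25, 1.74 and 4.36 CPM in the parental line, where 68 to 171 counts were found per library. No injected library came near the parental range, and passages 3 and 4 overlapped neither each other nor passages 1 and 2. FOSB was 93.3-fold higher than in the parental line in leaders of passage 1 (6.54 ± 0.44, edgeR adjusted p = 8.27e-08), 33.6-fold higher in leaders of passage 4 (5.07 ± 0.41, edgeR adjusted p = 6.82e-07) and 122-fold higher in laggers (6.94 ± 0.45, edgeR adjusted p = 5.69e-08).

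ATF3, a stress-induced partner of JUN proteins that can repress or activate, followed a similar order. Leaders had 68.8, 160.0 and 80.5 CPM at passage 1, 77.2, 96.1 and 114 CPM at passage 2, 53.3, 44.6 and 58.8 CPM at passage 3, and 42.3, 59.2 and 54.9 CPM at passage 4. Laggers had 119.7, 137 and 145 CPM, and the parental line had 3.48, 2.6 and 2.74 CPM. Injected and parental libraries did not overlap, and the leaders of passages 3 and 4 lay below all those of passages 1 and 2. ATF3 was 34.9-fold higher in leaders of passage 1 (5.13 ± 0.32, edgeR adjusted p = 3.7e-08), 17.7-fold higher in leaders of passage 4 (4.14 ± 0.31, edgeR adjusted p = 3.64e-07) and 45.5-fold higher in laggers (5.51 ± 0.33, edgeR adjusted p = 3.2e-08) than in the parental line.

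**Figure D1:**
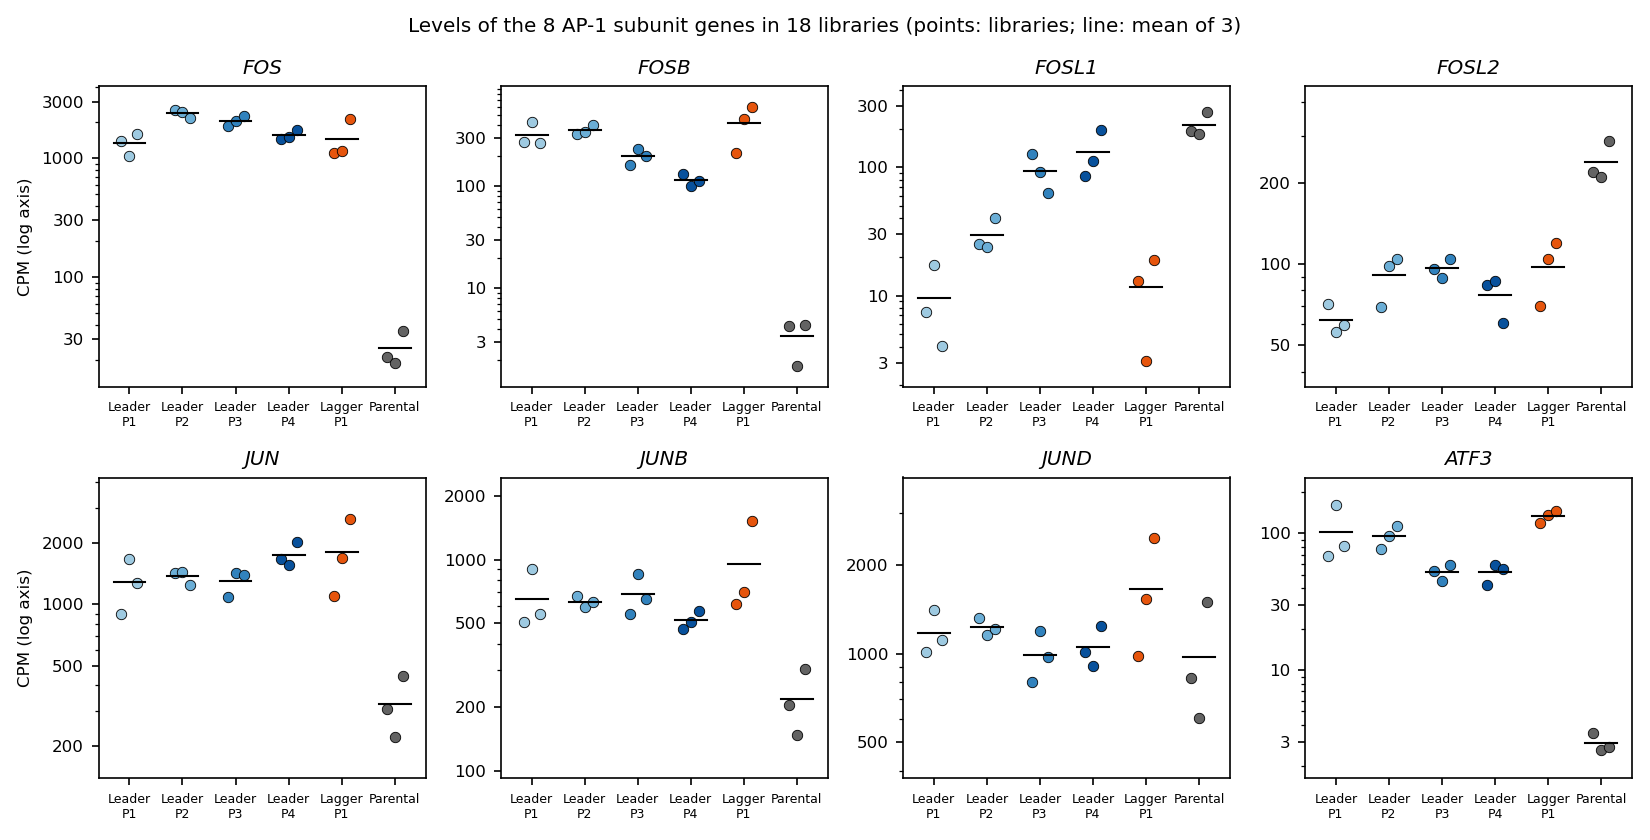
Level of each AP-1 gene in CPM (log axis, its own scale per panel) in the 3 libraries of each group; points are libraries and lines are means of 3. FOS, FOSB and ATF3 sit far above the parental line in all 15 injected libraries, FOSL2 sits below it, and FOSL1 climbs over the leader passages to a range of 86.2 to 197 CPM.

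The JUN genes moved less and unequally. JUN, the main partner of FOS proteins, had 900.0, 1682 and 1278 CPM in leaders of passage 1 and 1681, 1558 and 2036 CPM in leaders of passage 4. Laggers had 1104, 1695 and 2637 CPM, against 306, 223 and 443 CPM in the parental line. Every injected library was above every parental one, and JUN was 3.97-fold higher in leaders of passage 1 (1.99 ± 0.31, edgeR adjusted p = 9.83e-05), 5.43-fold higher in leaders of passage 4 (2.44 ± 0.31, edgeR adjusted p = 4.44e-05) and 5.59-fold higher in laggers (2.48 ± 0.31, edgeR adjusted p = 2.36e-05). At passages 2 and 3 it ranged from 1088 to 1450.4 CPM.

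JUNB, a JUN protein that can dampen the activity of JUN, rose 2.35-fold to 4.34-fold across the 5 injected groups. It had 467 to 903 CPM in leaders of any passage and 616, 703 and 1534 CPM in laggers, against 205, 147 and 304 CPM in the parental line, without overlap. Its smallest change was in leaders of passage 4 (1.23 ± 0.33, edgeR adjusted p = 0.0113), where leaving out parental replicate 2 gave 1.01 and an edgeR adjusted p of 0.0552, in a range of 0.00138 to 0.0552 over 14 alternatives.

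JUND did not pass the test in any comparison. Leaders had 1009.8, 1411 and 1115 CPM at passage 1, 1322, 1159.7 and 1218 CPM at passage 2, 799, 1198 and 975 CPM at passage 3, and 1017, 906 and 1240.3 CPM at passage 4. Laggers had 983, 1531 and 2485 CPM and the parental line had 829, 603 and 1494 CPM, so every injected group overlapped the parental range. The log2 difference from the parental line was 0.77 in laggers (95% interval 0.10 to 1.45, edgeR adjusted p = 0.0649) and 0.02 to 0.34 in the 4 leader groups. For laggers it was 1.0 (edgeR adjusted p = 0.0151) without lagger replicate 1 and 1.21 (edgeR adjusted p = 0.00834) without parental replicate 3, and the adjusted p ranged from 0.00834 to 0.283 over 14 alternatives.

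FOSL2 was the gene that stayed below the parental line throughout. Leaders had 71.4, 56.2 and 59.5 CPM at passage 1, 69.6, 98.7 and 105 CPM at passage 2, 96.3, 88.9 and 105 CPM at passage 3, and 84, 86.5 and 60.6 CPM at passage 4. Laggers had 69.9, 105 and 119.7 CPM, against 220.1, 210.3 and 287 CPM in the parental line. No injected library reached the parental range, while all neighbouring injected groups overlapped. FOSL2 fell 3.83-fold in leaders of passage 1 (-1.94 ± 0.23, edgeR adjusted p = 1.12e-05), 3.1-fold in leaders of passage 4 (-1.63 ± 0.23, edgeR adjusted p = 9.95e-05) and 2.43-fold in laggers (-1.28 ± 0.23, edgeR adjusted p = 0.000405).

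FOSL1 had the widest range among the injected groups. Leaders had 7.43, 17.4 and 4.03 CPM at passage 1, 25.1, 23.8 and 40.3 CPM at passage 2, 126, 91.6 and 63.3 CPM at passage 3, and 86.2, 111 and 197 CPM at passage 4. Laggers had 13.1, 3.11 and 19 CPM and the parental line had 190.4, 181 and 269 CPM. The leaders of passage 4 overlapped the parental range through replicate 3 alone, and those of passages 1 and 2 and the laggers lay far below it. FOSL1 fell 22.2-fold in leaders of passage 1 (-4.48 ± 0.62, edgeR adjusted p = 4.42e-05), 7.18-fold in leaders of passage 2 (-2.84 ± 0.58, edgeR adjusted p = 0.00179) and 18.3-fold in laggers (-4.19 ± 0.62, edgeR adjusted p = 9.37e-05), each relative to the parental line. For leaders of passage 1 the log2 difference was -5.15 without replicate 2, which held 17.4 CPM, and the call held in all 14 alternatives, with adjusted p from 6.62e-15 to 0.000503.

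At passage 3 the difference of FOSL1 from the parental line was -1.19 ± 0.55 and did not pass (edgeR adjusted p = 0.124). It passed with limma-voom (-1.23, adjusted p = 0.0403), without a filter on low counts (-1.22, edgeR adjusted p = 0.0398) and with only the compared groups in the fit (-1.18, edgeR adjusted p = 0.0239), and the adjusted p ranged from 0.0239 to 0.311 over 14 alternatives. At passage 4 it was -0.70 (95% interval -1.84 to 0.44, edgeR adjusted p = 0.359), an interval that holds 0. FOSL1 also varied most within groups of the 8 genes: its pooled SD was 0.73 on the log2 CPM scale, larger than that of 95.9% of the genes tested, whose median was 0.328.

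Counted together against the parental line, 5 of the 8 genes were higher and 2 lower in leaders of passage 1, where 23.2% of the 16187 genes tested were called higher and 22.4% lower (45.7% in either direction). The same counts were found in leaders of passage 2 (15.1% of genes tested higher, 14.8% lower, 29.9% either) and in laggers (21.5% higher, 17.8% lower, 39.3% either). In leaders of passage 3, 5 genes were higher and 1 lower (13.8% and 10.8%, 24.6% either), and in leaders of passage 4 likewise 5 and 1 (14.8% and 12.9%, 27.7% either). The median log2 difference of the 8 genes was 1.78, 1.81, 1.83 and 1.84 in leaders of passages 1 to 4 and 2.30 in laggers, while that of all genes tested lay between 0 and 0.09. These 5 comparisons share the parental libraries and are not independent. FOS, FOSB and ATF3 ranked 3rd, 14th and 10th by p among all genes tested in leaders of passage 1, and 4th, 10th and 5th in laggers.

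**Figure D2:**
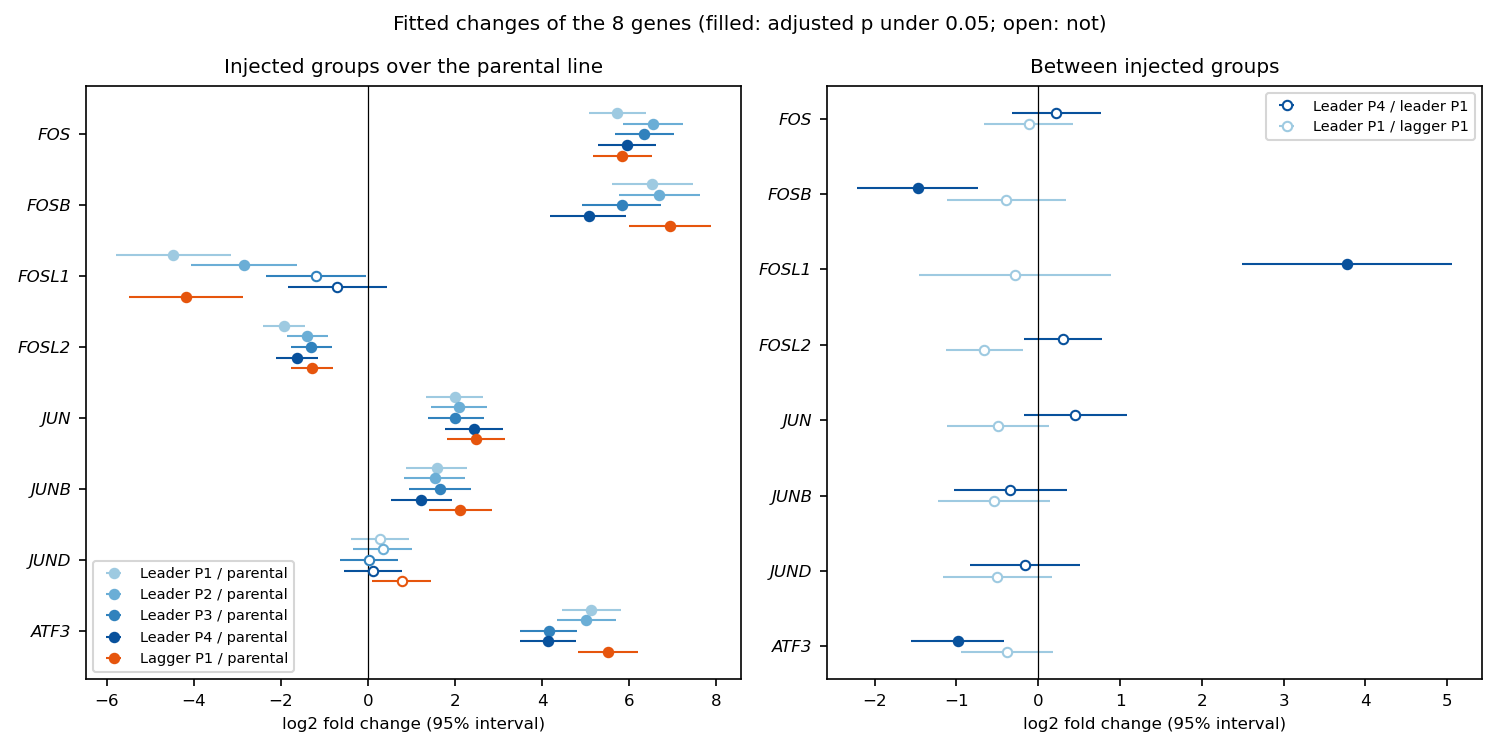
Log2 fold changes of the 8 genes with 95% intervals; left, each injected group over the parental line, and right, leaders of passage 4 over leaders of passage 1 and leaders over laggers of passage 1; filled points passed at an adjusted p under 0.05. FOS, FOSB, ATF3, JUN and JUNB lie right of 0 in all 5 injected groups, FOSL2 lies left, and the 3 filled points at the right are FOSB, FOSL1 and ATF3.

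Since FOS family proteins compete for JUN partners, the make-up of each family was read per kilobase of exon. FOS supplied 77.4% to 90.5% of FOS family RNA in the 15 injected libraries, against 4.53% to 5.65% in the parental ones. FOSL1 supplied 1.13 ± 0.96% of it in leaders of passage 1, 1.92 ± 0.70% at passage 2, 6.84 ± 2.74% at passage 3, 11.6 ± 3.6% at passage 4 and 1.13 ± 0.71% in laggers, against 72.9 ± 0.39% in the parental line (SD, n = 3 each). Even where FOSL1 neared its parental level it thus remained a minor part of the family RNA. Protein was not measured here. FOSL2 supplied 1.13% to 3.24% in injected libraries and 20.6% to 22.4% in parental ones. FOSB supplied 12.3 ± 5.38% in leaders of passage 1, 3.6 ± 0.77% in leaders of passage 4 and 13.7 ± 4.14% in laggers, against 0.40 ± 0.16% in the parental line.

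The ratio of FOS to FOSL1 per kilobase averaged 126 ± 99.6 in leaders of passage 1, 50.2 ± 16.1 at passage 2, 14.3 ± 6.23 at passage 3, 7.66 ± 2.38 at passage 4 and 110.2 ± 92.4 in laggers, against 0.0681 ± 0.0079 in the parental line (SD, n = 3 each). It was at least 5.14 in every injected library and at most 0.0771 in every parental one. Summed over the family, FOS family RNA was 489 ± 69.5 CPM per kilobase in leaders of passage 1, 831 ± 41.4 at passage 2, 739.9 ± 49.5 at passage 3, 586 ± 72.8 at passage 4 and 548 ± 216 in laggers, against 155 ± 34.5 in the parental line.

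JUND was the main JUN gene per kilobase in every group, with 40.4% to 50.5% of JUN family RNA in injected libraries and 69.1% to 73.3% in parental ones. JUN supplied 36.6% to 37.2% in leaders of passage 4, above the 23.7% to 31% of all other injected libraries and the 11.4% to 13.5% of the parental line. JUNB supplied 20.1% to 31% in injected libraries and 15.3% to 17.5% in parental ones. JUN family RNA summed to 1355 ± 337 CPM per kilobase in leaders of passage 1, 1346 ± 186 in leaders of passage 4 and 1929 ± 896 in laggers, against 735 ± 323 in the parental line. The lengths are of all exons in GENCODE 29, so the shares would move with the isoforms in use.

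**Figure D3:**
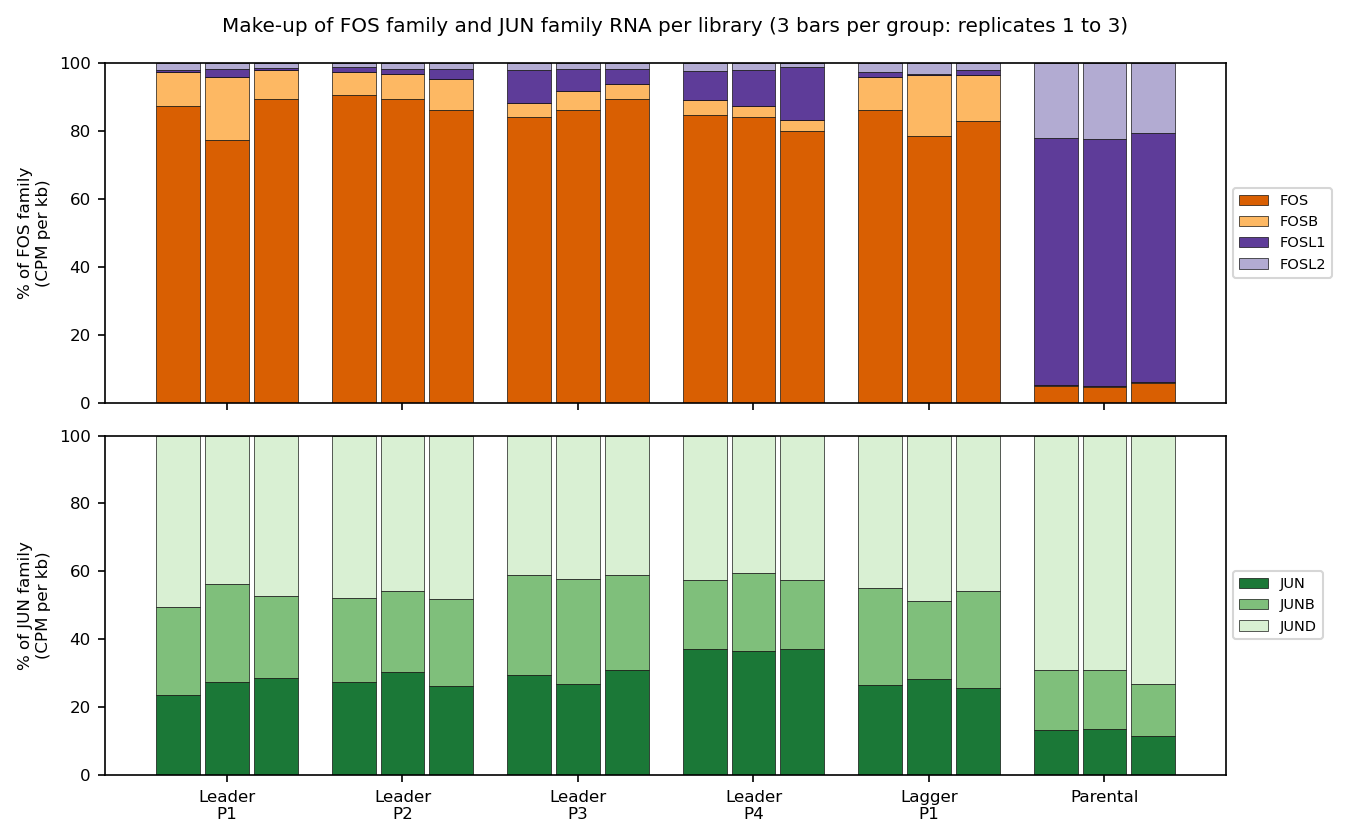
Share of each gene in FOS family RNA (top) and JUN family RNA (bottom), as percent of summed CPM per kilobase of exon, with 1 bar per library. FOS fills 77.4% to 90.5% of each injected bar and 4.53% to 5.65% of each parental one, FOSL1 regains part of the bar by passage 4, and JUND shrinks to 40.4% to 50.5% of the injected bars.

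Leaders were compared with laggers of passage 1 to ask what parts the cells at the front from those behind. None of the 8 genes passed (0 of 8 higher and 0 lower, where 0.0185% of genes tested were called higher and 0.0432% lower, 0.0618% in either direction). Over all genes tested edgeR called 10, DESeq2 372 and limma-voom 27, and 2338 had an unadjusted edgeR p under 0.05, but none of the 8 was called by any of them. All 8 log2 differences lay between -0.66 and -0.12, with a median of -0.44 against -0.06 for all genes tested. Of the members, FOSL2 alone had an unadjusted p under 0.05: it had 56.2 to 71.4 CPM in leaders and 69.9 to 119.7 CPM in laggers (-0.66, 95% interval -1.13 to -0.18, edgeR adjusted p = 0.236). The other intervals reached from -1.46 to 0.89 for FOSL1, from -1.12 to 0.34 for FOSB and from -0.66 to 0.43 for FOS. Lagger replicate 3, the shallowest library (15113462 counts, 16.5% of reads unaligned), held the highest lagger value of all 8 genes, and without it the difference for FOS was 0.26 and that for FOSL1 was 0.23, neither called.

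Over the leader passages, FOSL1 rose while FOSB and ATF3 fell. Leaders of passage 4 had 13.7-fold more FOSL1 than leaders of passage 1 (3.77 ± 0.61, edgeR adjusted p = 0.000627), with no overlap between their libraries. Without leader passage 1 replicate 2, which had the highest FOSL1 of its group, the log2 difference was 4.49, and the call held in all 14 alternatives, with adjusted p from 3.84e-10 to 0.00512. FOSB was 2.78-fold lower (-1.47 ± 0.35, edgeR adjusted p = 0.00824) and ATF3 was 1.98-fold lower (-0.98 ± 0.27, edgeR adjusted p = 0.0175), again with no overlap. The other 5 genes did not pass, with log2 differences from -0.34 for JUNB to 0.45 for JUN (95% interval -0.17 to 1.08). Thus 1 of 8 was higher and 2 lower, where 10.8% and 9.17% of genes tested were called (20.0% in either direction). The call of ATF3 depended on single libraries: it was -0.54 (edgeR adjusted p = 0.112) without leader passage 1 replicate 2, which held 160.0 CPM, -0.85 (0.0775) without leader passage 4 replicate 1, and -1.04 (0.0521) without leader passage 4 replicate 3, in a range of 0.00266 to 0.112 over 14 alternatives.

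A linear trend over passages 1 to 4 gave the same 3 genes, 1 higher and 2 lower, where 11.7% and 9.38% of genes tested were called (21.1% in either direction). FOSL1 rose by 1.30 ± 0.19 log2 per passage (edgeR adjusted p = 0.000285), whereas FOSB changed by -0.53 ± 0.11 (edgeR adjusted p = 0.00364) and ATF3 by -0.38 ± 0.09 (edgeR adjusted p = 0.00534). All 3 kept their calls under each of the 20 alternatives run for the trend. The slope of FOS was 0.05 ± 0.08 and did not pass (edgeR adjusted p = 0.742), and its highest values were those of passages 2 and 3. The mitochondrial share and the fibroblast sum were lower in all libraries of passage 4 than in those of passage 1, as given above. Their part in these trends was not tested, and leaving out the mitochondrial genes, which only removes counts, cannot show it.

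Within groups, the JUN genes were high or low together from library to library. After removal of group means, the deviations of log2 CPM correlated at r = 0.914 between JUN and JUNB, 0.94 between JUN and JUND and 0.927 between JUNB and JUND over the 18 libraries, which share depth and preparation, so this is a description. FOSB followed them (r = 0.839 with JUN and 0.842 with JUND), FOS less closely (0.721 with JUND), and ATF3 less closely still (0.421 with JUN, 0.408 with JUNB, 0.227 with JUND, 0.428 with FOSB, 0.438 with FOSL1, 0.0884 with FOSL2 and -0.221 with FOS). Ties as close as those among the JUN genes were not particular to the family. Within groups, JUND followed RHBDD3 at r = 0.949 and ARF1 at 0.938, and JUNB followed RASSF1 at 0.906. FOSL1 kept apart from the other FOS genes, with r = 0.143 to FOS, 0.182 to FOSB and -0.121 to FOSL2. The same deviations correlated with the unaligned share of reads at r = 0.563 for JUND, 0.549 for JUNB, 0.427 for JUN and FOSB and 0.331 for FOS, and those of FOS with the mitochondrial share at -0.676. Those of FOSL2 correlated with the mitochondrial share at -0.464, and those of FOSL1 with the share aligned to more than 1 place at 0.517. For the log2 total of gene counts r was -0.387 for JUN, -0.443 for JUNB and -0.401 for JUND. With the unaligned share as a covariate no call of the 8 genes changed. The other library measures were not used as covariates.

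Genes with the most similar pattern were read from the Pearson correlation of log2(CPM + 1) over the 18 libraries among 11332 genes, as a description that the step between injected and parental libraries dominates. Most like FOS was DUSP1, a MAP kinase phosphatase (r = 0.985), with 873 to 1070.5 CPM as the mean of each injected group and 96.7 CPM in the parental line, followed by LONRF2 (0.972) and PLAT (0.961). NR4A2, an immediate early nuclear receptor, came first for both FOSB (0.975) and ATF3 (0.984), followed in both by PNRC1 (0.97 and 0.967). Within groups, the deviations of NR4A2 followed those of FOSB at r = 0.378 and those of ATF3 at 0.204. For PNRC1 these values were 0.64 and 0.235. Next for FOSB came COL3A1 (0.968), a gene of the fibroblast list, with 952, 535, 565 and 285 CPM as the mean of leaders of passages 1 to 4 and 876 CPM in laggers, against 7.07 CPM in the parental line. Its deviations within groups followed those of FOSB at r = 0.323. Next for ATF3 came PPIC (0.966). Like FOSL1 were PXN, the focal adhesion protein paxillin (0.965), the replication nuclease FEN1 (0.952) and PRR11 (0.947). PXN averaged 68.1, 127, 196 and 274 CPM in leaders of passages 1 to 4 and 55.7 CPM in laggers, against 410.3 CPM in the parental line, and its deviations within groups followed those of FOSL1 at r = 0.742. KLF6 (0.976), DDIT4 (0.966) and CDKN1A (0.96) came closest to JUN, RASSF1 (0.932) to JUNB, RHBDD3 (0.908) to JUND and BCAR3 (0.927) to FOSL2. By Spearman correlation, 1 of the 3 genes named for FOSL1 and none of those for the other 7 stayed among the first 3.

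Most other immediate early genes on a list of 22 were also higher in laggers. Of the 22, 17 were higher and 1 lower in laggers, set against the parental line, where 21.5% of genes tested were called higher and 17.8% lower, with a median log2 difference of 2.62 against 0.09 for all genes tested. Relative to the parental line, 14 of the 22 were higher and 2 lower in leaders of passage 1 (23.2% and 22.4% of genes tested), 14 and 1 at passage 2 (15.1% and 14.8%), 14 and 2 at passage 3 (13.8% and 10.8%), and 15 and none at passage 4 (14.8% and 12.9%). NR4A1, a nuclear receptor, had 326 to 672 CPM in laggers and 11.7 to 14.9 CPM in the parental line (5.31 ± 0.33, edgeR adjusted p = 4.29e-08). NR4A2 had 328 to 431 CPM in laggers and at most 0.185 CPM in the parental line, and NR4A3 had 43.8 to 57.1 CPM and at most 0.296 CPM. The gene that was lower was CYR61, which encodes a matricellular protein (-1.04 ± 0.26, edgeR adjusted p = 0.00571). Set against passage 1, leaders of passage 4 had 4 higher and 6 lower (10.8% and 9.17% of genes tested): NR4A2 fell to 46.2 to 54.5 CPM in leaders of passage 4, against 159 to 214 CPM in leaders of passage 1 (-1.88 ± 0.24, edgeR adjusted p = 0.00012). BTG2, an antiproliferative gene (-1.07 ± 0.22, edgeR adjusted p = 0.00313), and ARC, known from synapses (-2.40 ± 0.50, edgeR adjusted p = 0.0038), fell too.

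Among 13 tested genes of negative feedback on MAP kinases and on short-lived messengers, 6 were higher and none lower in laggers, compared with the parental line (21.5% and 17.8% of genes tested), with a median log2 difference of 0.89. In leaders of passage 1, 4 were higher and 1 lower than in the parental line (23.2% and 22.4% of genes tested). The median there was 0.26 against 0.07 for all genes tested. At passage 2, 4 were higher and none lower (15.1% and 14.8% of genes tested). These counts were 5 and none at passage 3 (13.8% and 10.8%), and 7 and none at passage 4 (14.8% and 12.9%). DUSP1 had 667 to 1285 CPM in laggers and 85.4 to 116 CPM in the parental line (3.17 ± 0.24, edgeR adjusted p = 2.42e-07). ZFP36, whose product destabilises AU-rich messengers, had 218 to 664 CPM against 48.4 to 63.4 CPM (2.95 ± 0.36, edgeR adjusted p = 1.94e-05), and DUSP6, a phosphatase for ERK, had 3.4 to 26 CPM against 0.037 to 2.17 CPM (3.41 ± 0.78, edgeR adjusted p = 0.00278). In leaders of passage 4, 4 were higher and none lower than in leaders of passage 1 (10.8% and 9.17% of genes tested). SPRY4, an inhibitor of receptor tyrosine kinase signalling, had 270.2 to 451 CPM in leaders of passage 4 and 68.4 to 112 CPM in leaders of passage 1 (2.08 ± 0.34, edgeR adjusted p = 0.000799), its relative SPRY2 rose by 0.94 ± 0.16 log2 (edgeR adjusted p = 0.000903) and DUSP2 by 1.58 ± 0.44 (edgeR adjusted p = 0.0201). The parental line had 140.2 to 155 CPM of SPRY4, 180.4 to 234 CPM of SPRY2 and 20.6 to 40.1 CPM of DUSP2. DUSP2 had 9.31 to 14.9 CPM in leaders of passage 1, lower than in the parental line (-1.18 ± 0.44, edgeR adjusted p = 0.0368). In leaders of passage 4 its 32.3 to 49.1 CPM overlapped the parental range.

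Of 20 tested genes for MAP kinases and serum response factor partners that control AP-1, 6 were lower and 1 was higher in laggers, measured against the parental line (17.8% of genes tested lower and 21.5% higher), with a median of -0.38 against 0.09 for all genes tested. RPS6KA1, a kinase downstream of ERK, had 29.6 to 50.6 CPM in laggers and 112 to 163 CPM in the parental line (-1.76 ± 0.30, edgeR adjusted p = 0.000319), and ELK3, a partner of serum response factor, was lower by a log2 difference of -0.91 ± 0.21 (edgeR adjusted p = 0.00317). MAP2K6, which activates p38, was the exception, with 1.26 to 15.9 CPM in laggers and at most 0.0746 CPM in the parental line. In leaders of passage 4, 6 of 20 were higher and 1 lower than in leaders of passage 1 (10.8% and 9.17% of genes tested), with a median of 0.52 against -0.02 for all genes tested. SRF itself had 51.3 to 60.3 CPM in leaders of passage 4 and 17.6 to 21.5 CPM in leaders of passage 1 (1.50 ± 0.27, edgeR adjusted p = 0.00127). ELK3 rose by 1.01 ± 0.21 log2 (edgeR adjusted p = 0.00409), and MAP2K6 fell to at most 0.749 CPM, against 9.45 to 13 CPM in leaders of passage 1. The parental line had 44.2 to 67.7 CPM of SRF and 41.7 to 53.7 CPM of ELK3. Set against the parental line, 3 of the 20 were higher and 8 lower in leaders of passage 1 (23.2% and 22.4% of genes tested). At passage 4, none was higher and 1 was lower (14.8% and 12.9% of genes tested), with a median of 0.05 against 0.03 for all genes tested.

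Of 18 tested leucine zipper genes whose products pair with AP-1 subunits, 7 were higher in laggers and 1 was lower, relative to the parental line (21.5% and 17.8% of genes tested), with a median of 0.12, near the 0.09 of all genes tested. CREB5 had 16.2 to 31.2 CPM in laggers and 2.79 to 3.93 CPM in the parental line (2.94 ± 0.39, edgeR adjusted p = 3.82e-05). DDIT3, the stress factor CHOP, rose by 2.67 ± 0.39 log2 (edgeR adjusted p = 9.61e-05) and CREM, a cAMP-responsive factor, by 1.90 ± 0.32 (edgeR adjusted p = 0.000302). In leaders of passage 4 against passage 1, 1 of the 18 was higher and 2 were lower (10.8% and 9.17% of genes tested). The median was -0.08 against -0.02 for all genes tested. ATF7 was the 1 that rose (0.94 ± 0.21, edgeR adjusted p = 0.00626), while CREM fell (-1.33 ± 0.32, edgeR adjusted p = 0.00834).

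Of 23 tested genes known as AP-1 targets, 7 were higher in laggers and 4 were lower, set beside the parental line, shares near those of all genes tested (21.5% and 17.8%), with a median of 0.18 against 0.09. HBEGF, an EGF receptor ligand, had 27.4 to 43.1 CPM in laggers and 8.07 to 10.7 CPM in the parental line (1.98 ± 0.31, edgeR adjusted p = 0.000135), IER3 rose by 2.43 ± 0.43 log2 (edgeR adjusted p = 0.000455), and the gap junction gene GJA1 had 7.62 to 13.1 CPM against at most 0.111 CPM. In leaders of passage 4, where FOSL1 was higher, 12 of 23 were higher and 2 lower than in leaders of passage 1 (10.8% and 9.17% of genes tested), with a median of 1.22 against -0.02 for all genes tested. PLAUR, the urokinase receptor, had 359 to 597 CPM in leaders of passage 4 and 17.1 to 62.1 CPM in leaders of passage 1 (3.82 ± 0.67, edgeR adjusted p = 0.0012), and VEGFA, the angiogenic growth factor, had 236 to 598 CPM against 47.4 to 60.9 CPM (2.86 ± 0.33, edgeR adjusted p = 4.38e-05). HBEGF was lower (-1.58 ± 0.30, edgeR adjusted p = 0.00218). PLAU, urokinase itself, was picked after its values were seen: it had 478 to 1299 CPM in leaders of passage 4 and 37.8 to 201 CPM in leaders of passage 1 (2.96 ± 0.67, edgeR adjusted p = 0.00633). The parental line had 84.2 to 122 CPM of PLAUR, 52 to 76.7 CPM of VEGFA and 313 to 371 CPM of PLAU. Relative to it, leaders of passage 1 were lower in PLAUR (-1.67 ± 0.62, edgeR adjusted p = 0.0363) and PLAU (-1.63 ± 0.64, edgeR adjusted p = 0.0473). In the same comparison VEGFA did not pass (-0.21 ± 0.31, edgeR adjusted p = 0.597) and HBEGF was higher (1.59 ± 0.30, edgeR adjusted p = 0.000552). Set against the parental line, 6 of the 23 targets were higher and 6 lower in leaders of passage 1, close to the shares of all genes tested (23.2% and 22.4%). At passage 4, 10 were higher and 3 lower (14.8% and 12.9% of genes tested). Whether FOSL1 had a part in these changes was not tested.

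**Figure D4:**
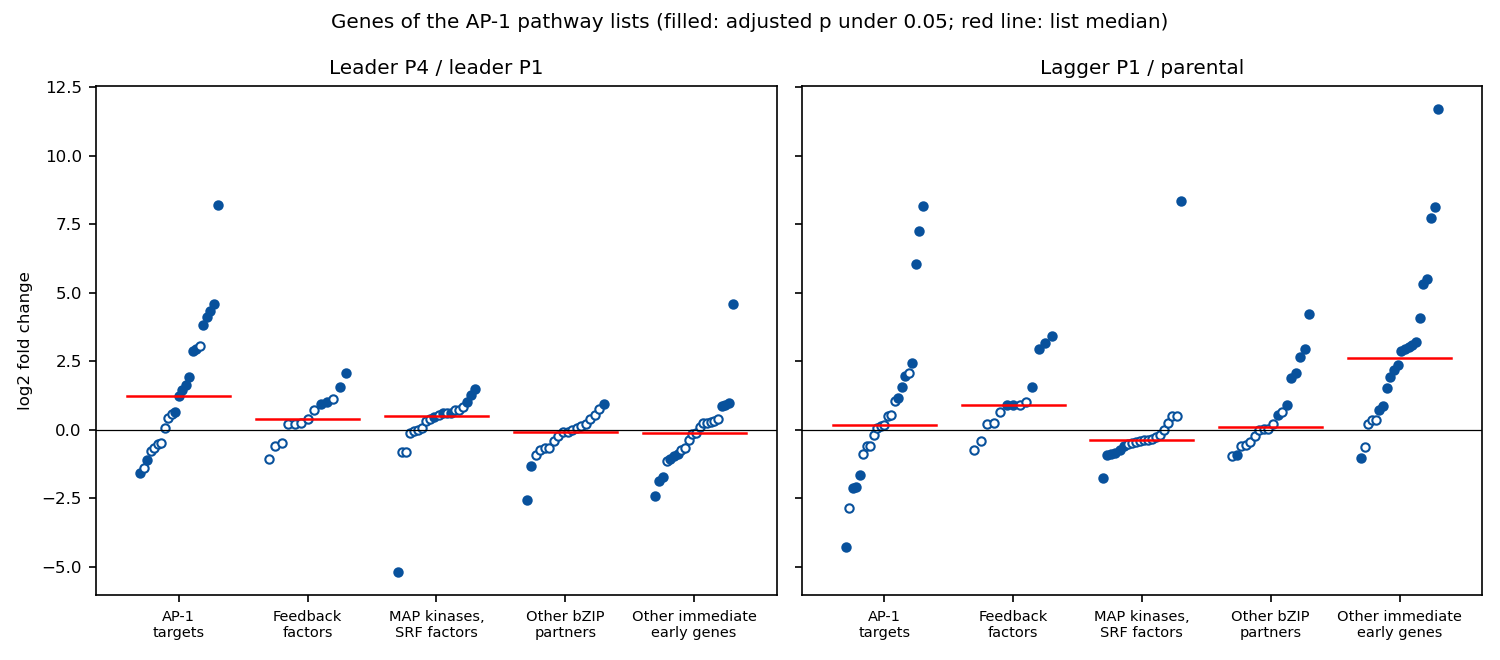
Log2 fold changes of the tested genes of 5 lists around AP-1, for leaders of passage 4 over leaders of passage 1 (left) and laggers over the parental line (right); filled points passed at an adjusted p under 0.05 and red lines are list medians. At the left the AP-1 target list has the highest median (1.22), and at the right the other immediate early genes do (2.62).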

How the data were processed

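RNA sequencing covered 18 libraries, 3 in each of 6 groups of MiaPaCa-2 cells, from RNA amplified without strand information (SMART-Seq v4) and read as paired ends, per the labels. The deposited table holds raw counts per gene, made by the authors. The submitters' processing notes list HTSeq 0.5.3, STAR 2.5.0a, DESeq 1.22.1 and cutadapt 1.6. For build and annotation, the sources used here give none that served the counting. The 5 entries that name no gene, such as unaligned reads, held 27.6% to 60.6% of all counts per library. Their share was higher in every injected library than in any parental one. They were left out of tests and library sizes.

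Counts were tested with edgeR 4.0.16 (R 4.3.3) by quasi-likelihood F tests with TMM scaling, 1 mean per group and all 18 libraries fitted together. The expression filter of edgeR left 16187 genes to test and 41258 untested; all 8 members passed. Benjamini-Hochberg adjustment ran over all genes tested, in each of 8 comparisons, and genes were called at an adjusted p under 0.05. Common dispersion came to 0.126 (biological coefficient of variation 35.5%). SE and 95% intervals come from the same fit, and the test was tested on simulated data. Alternatives were DESeq2 1.42.0, limma-voom (limma 3.58.1), another scaling, no mitochondrial genes, no filter on low counts, the replicate number as a block, only the compared groups, and each replicate left out. The unaligned share as a covariate was added after seeing the data.

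The members and lists were chosen with earlier results of these data known. Some genes that the naming rule covers are not reported here. From each list, the text names up to 3 genes of smallest adjusted p in laggers against the parental line and in leaders of passage 4 against passage 1, and for each member up to 3 genes of most similar pattern among those with a group mean of at least 5 CPM (log2 with a pseudocount of 1). Genes were matched to GENCODE 29 by Ensembl identifier for position and exon length (51812 of 57445 had one), and promoters to RefSeq by symbol. Replicates of a group were no copies of each other: their counts gave 19.6 to 219 as chi-square per degree of freedom.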

Additional observations from a re-analysis of the deposited data

Results flagged for a closer look

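For 3 of the 8 genes the change from the parental line differed between leaders of passage 4 and leaders of passage 1 by a test of the difference itself, which is the same as the direct contrast of the 2 leader groups, since they share the parental libraries. FOSL1 was lower than in the parental line by a log2 difference of -0.70 at passage 4 and -4.48 at passage 1, a difference of 3.77. FOSB was higher by 5.07 at passage 4 and 6.54 at passage 1, a difference of -1.47. ATF3 was higher by 4.14 at passage 4 and 5.13 at passage 1, a difference of -0.982, the call of which was lost without any 1 of 3 libraries, as given in the report.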

How the results depend on the processing

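Over the 8 genes and 8 comparisons, 922 of 944 alternative values kept their direction and their side of the threshold, as did the 48 group levels with unscaled totals, which stayed within 1 SD. Every call of FOS, FOSB, FOSL1, FOSL2 and JUN held in all alternatives run; 4 calls were lost (3 of ATF3, 1 of JUNB) and 5 gained (3 of FOSL1, 2 of JUND), all given above. The 13 values that turned were all of uncalled differences. JUND in leaders of passage 3 against the parental line was -0.00702 without a filter and -0.33 with the unaligned share as covariate, and -0.211 to 0.466 with a replicate left out; at passage 4 it was -0.144 to 0.556. FOS in leaders against laggers was 0.045 with that covariate and -0.26 to 0.263 with a replicate left out, FOSL1 in the same comparison -0.942 to 0.232, and the slope of FOS -0.0122 to 0.0884. The number of genes called in leaders against laggers was 372 with DESeq2, 27 with limma-voom, 257 without a filter, 1 with the covariate, 0 with only the compared groups (1197 at an unadjusted p under 0.05) and 0 to 52 with a replicate left out. With only the compared groups 3355 genes were called in laggers against the parental line. With a replicate left out, 1512 to 2821 genes were called in leaders of passage 4 against passage 1, 1740 to 3255 in the trend, 3167 to 4414 in leaders of passage 2 and 2491 to 3761 in leaders of passage 3 against the parental line. Nothing in the labels says that equal replicate numbers pair libraries: deviations of same-numbered libraries correlated at -0.408 to 0.401, with 8 of 45 pairs over 0.1. The replicate block gave 3 called genes in place of 10 in leaders against laggers and changed no call of the 8 genes. Other causes were not tested. The counts behind the values were lowest for FOSL1 in leaders of passage 1 and laggers (65 to 352 per library) and for FOSB (68 to 171) and ATF3 (74 to 140) in the parental line.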
